A study of Mus musculus with 6 samples.

Results

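Amino acid transporters are described here in wild-type and Arid3b-null embryonic mouse hearts. Arid3b encodes a DNA-binding protein of the ARID family. They were taken by name: every mouse gene whose symbol begins with Slc1a, Slc3a, Slc7a, Slc36a, Slc38a or Slc43a followed by a number. Of 32530 genes or unnamed targets on the array, 43 met this rule. Of the 43, 38 had a probe that the scanner software marked well above background on 3 or more of the 6 arrays and were tested. In all, 21800 genes or unnamed targets were tested, of which 15233 had a symbol, and all are called genes below. The 5 of the 43 that did not pass were Slc7a11, Slc7a12, Slc7a13, Slc7a15 and Slc36a3. Slc7a6os also meets the rule by its letters, being named for its place opposite Slc7a6, but it encodes no transporter.

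The tissue was the heart at embryonic day 9.5, taken with the mesoderm and endoderm of the pharynx that lie under the heart tube. RNA was measured on 6 single-colour Agilent arrays, 3 from wild-type and 3 from Arid3b-null embryos, and each array held a pool of 4 embryos. The labels name the null group by this gene alone and give no allele or strain. Each of 3 slides carried 1 wild-type and 1 null pool, numbered alike, with the wild-type array in the same place every time, so that place and genotype cannot be told apart.

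Amino acids do not cross cell membranes unaided, and these carriers set which of them a cell can take up, give out or exchange. The Slc7 family holds cationic amino acid transporters, which work alone, and light chains, which carry out transport after a disulfide bond joins them to a heavy chain of the Slc3 family. Slc1 proteins move glutamate and aspartate or exchange small neutral amino acids. Slc38 proteins carry glutamine and other neutral amino acids with sodium, Slc36 proteins are driven by protons, and Slc43 proteins let large neutral amino acids pass down their gradient. When amino acids run short or the endoplasmic reticulum is stressed, kinases that phosphorylate eIF2 raise translation of the transcription factor ATF4, whose known targets include several of these carriers, among them Slc7a11, Slc3a2, Slc7a5, Slc7a1 and Slc38a2.

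ATF4 binds composite elements near such genes, and HIF factors bind a short core, so both were looked for in the promoter windows RefSeq gives for these genes (build GRCm38.p6; 250 bases before the start and 50 after it). The response element was searched as TGATGNAA and the HIF core as ACGTG, on both strands. A window was found for 32 of the 43 genes, 43 windows in all. The stretches below show the response element in each gene whose window holds it, and the HIF core in the risen genes whose window holds it, 5′ to 3′ on the gene's strand, with the matched letters in capitals. The Slc7a11 stretch (chr3:50443614-50443713, minus strand) ends at the start site, and its matches begin 66 and 47 bases before it, on opposite strands. The Slc1a4 stretch (chr11:20332699-20332728, minus strand) spans the start site, with the match beginning 4 bases before it. Slc7a7 has several starts, and its stretches (chr14:54418067-54418096 and chr14:54417927-54417956, minus strand) hold matches that begin 141 bases and 1 base before the same start. The Slc3a2 stretch (chr19:8714044-8714073, minus strand) and the Slc1a6 stretch (chr10:78780452-78780481, plus strand) hold the HIF core. In Slc1a6 the letters read the same on both strands, so that 2 matches overlap.
Slc7a11: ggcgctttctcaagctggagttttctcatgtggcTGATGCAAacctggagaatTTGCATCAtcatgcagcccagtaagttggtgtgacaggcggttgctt
Slc1a4: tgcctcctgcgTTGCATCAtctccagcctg
Slc7a7, farther: ccgcttgggctTGATGAAAggttcactggg
Slc7a7, nearer: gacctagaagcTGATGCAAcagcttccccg
Slc3a2: tcaagacaaattCACGTttgttattctaag
Slc1a6: gccccccgcaccCACGTGagctcaaggcca

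Of the transporters that rose in the results below, 6 had a window (Slc1a2, Slc1a6, Slc3a2, Slc7a1, Slc7a10 and Slc43a2), and the response element was in 0 of the 6. Over all members it was in 4 of 43 windows, of the genes Slc7a11, Slc1a4 and Slc7a7, against 3.97% of all 32851 windows. Windows of 1 gene can overlap, and 2 of the 4 hold the same Slc7a7 site. By gene it was in 3 of 32. The HIF core was in the windows of 2 of the 6 risen genes, Slc3a2 and Slc1a6, of 1 of the 2 fallen genes, Slc7a14, and of 9 of 21 genes that did not pass the test. It was in 15 of the 43 windows, against 19.6% of all windows, and by gene in 13 of 32. Here too, overlapping windows of a gene share sites. The table held no window for Slc7a3, Slc7a5 and Slc38a3. A match is a description of these letters only, and the lack of one says nothing about sites outside the window.

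Null hearts were compared with wild-type hearts to ask which genes differ in level between these genotypes. Arid3b itself read 2.91, 3.40 and 3.69 in the wild-type and 1.07, 0.52 and 0.45 in the null pools, and fell by 2.65 log2 units (SE 0.26, limma adjusted p = 0.00192). Its probe still gave a signal well above background on all 3 null arrays, and whether it lies in the deleted part is not given. Over all arrays, the software marked 27136 to 31039 of 43020 non-control spots well above background and 0 saturated. The 75th percentile of log2 signal lay between 9.5 and 10.16 on the wild-type and between 9.02 and 9.48 on the null arrays. All 11 cardiomyocyte and all 6 pharyngeal endoderm markers were well above background on every array. With only 3 pools a group, precision is limited throughout.

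Among the 38 transporter genes tested, 9 rose and 2 fell in the null hearts, and 27 did not pass. A gene was called where the limma adjusted p, over all genes tested, was under 0.05. The 9 were the cationic carriers Slc7a3 and Slc7a1, the heavy chain Slc3a2, the light chains Slc7a5 and Slc7a10, the glutamate carriers Slc1a2 and Slc1a6, the glutamine carrier Slc38a3 and the large neutral carrier Slc43a2. The 2 that fell were the glutamate and cysteine carrier Slc1a1 and the orphan Slc7a14. The risen genes are 23.7% of those tested here, beside 6.60% of all genes tested, and the fallen 5.26%, beside 3.83%. All 9 risen genes were well above background on all 6 arrays. Slc7a14 entered the test through its wild-type arrays alone, so nothing is read from the fallen count. The median change of the 38 was 0.24 log2 units, against 0.03 for all genes. The members were chosen with earlier results of these data known, so these shares and this median are no independent evidence. Among the 9 risen, 7 changed by more than 1 log2 unit, beside 880 of the 1439 that rose over all genes.

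The number of calls rests on the pools used, among the members as over all genes. Leaving out wild-type pool 2 gave 4 risen members and leaving out null pool 2 gave 5. Over all genes the risen then went from 1439 to 592 and 589. The fallen members were 1 when any of 4 pools was left out (wild-type 1 or 2, null 2 or 3). Over all genes the fallen then went from 834 to between 245 and 495. A fit that holds the slide as a block gave 4 risen and 2 fallen (10.5% and 5.26% of members, beside 2.44% and 0.913% of all genes). Those 4 were Slc7a3, Slc38a3, Slc1a2 and Slc7a5. With each array scaled to its median, which moved the median of all genes from 0.03 to -0.11, 7 members rose and 2 fell, while over all genes the split turned from 1439 higher and 834 lower to 1093 and 1435.

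**Figure D1:**
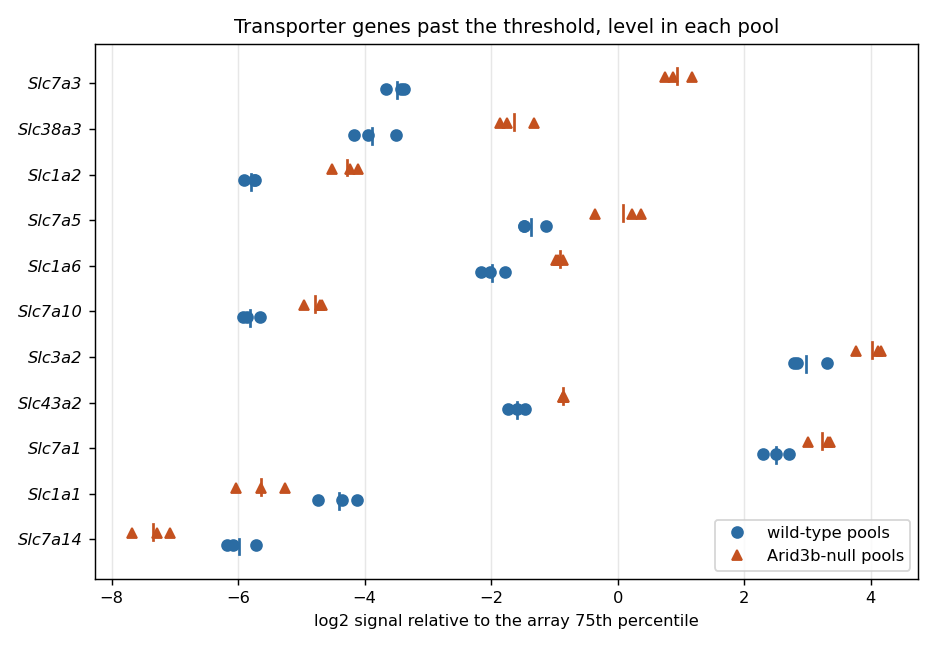
Level of the 11 transporter genes past the threshold in each pool, as log2 signal above or below the 75th percentile of that array, with circles for the 3 wild-type pools, triangles for the 3 null pools and short lines for the group means. In no gene do the groups overlap, and Slc7a3 shows the widest gap, from a mean of -3.49 to 0.94. The genes were picked by adjusted p, so the lack of overlap is no further evidence. The null arrays of Slc7a14 were not well above background.

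The cationic amino acid transporters bring arginine, lysine and ornithine into the cell. Slc7a3, which encodes CAT3, read -3.66, -3.38 and -3.43 in wild-type pools 1, 2 and 3, where 0 is the 75th percentile of each array's log2 signal. Null pools 1, 2 and 3 read 0.75, 1.18 and 0.87. Its level was thus far higher in every null pool, with little spread inside either group. The difference was 4.43 log2 units (SE 0.18), or 21.5-fold, with a limma adjusted p = 0.000158. Within slides 1, 2 and 3 it was 4.41, 4.56 and 4.31. It passed under all 17 alternatives, between 3.42 and 4.52, and normexp background correction gave the lowest value.

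Slc7a1, which encodes the widely expressed CAT1, rose far less. Its levels were 2.50, 2.71 and 2.29 in the wild-type pools and 3.00, 3.35 and 3.32 in the null pools. The groups were apart by a small gap, with a difference of 0.72 log2 units (SE 0.18, limma adjusted p = 0.0493). This call lay at the threshold. It was lost in the block fit (adjusted p = 0.187), when arrays were scaled to their medians (0.0875), without a filter on dim probes (0.119) and without any pool except null pool 1 (up to 0.164). Slc7a2, the CAT2 gene, was well above background on 1 wild-type and 2 null arrays, and its groups overlapped, from -7.49 to -6.44 and from -6.99 to -5.49 (adjusted p = 0.242).

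Slc7a4 and Slc7a14 resemble the cationic carriers in sequence, and what they carry is less settled. Slc7a14 read -5.71, -6.18 and -6.08 in the wild-type pools and -7.67, -7.08 and -7.28 in the null pools. None of its null arrays was marked well above background, so it passed the filter on its wild-type arrays alone and only a rough bound can be given. With unmarked signals taken as no brighter than the dimmest marked signal on the array, the null level was lower by at least 1.29-fold. This bound is not firm, since unmarked signals can be brighter: Slc7a9 read -5.44 in null pool 3 without the mark. The limma adjusted p = 0.0105 belongs to the fitted change, which uses null values below background, and does not test this bound. With normexp the fitted change turned from -1.36 to 0.20 log2 units and the call was lost (adjusted p = 0.441). Slc7a4 lay slightly higher in every null pool, by 0.26 (SE 0.15), and did not pass (adjusted p = 0.319).

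**Figure D2:**
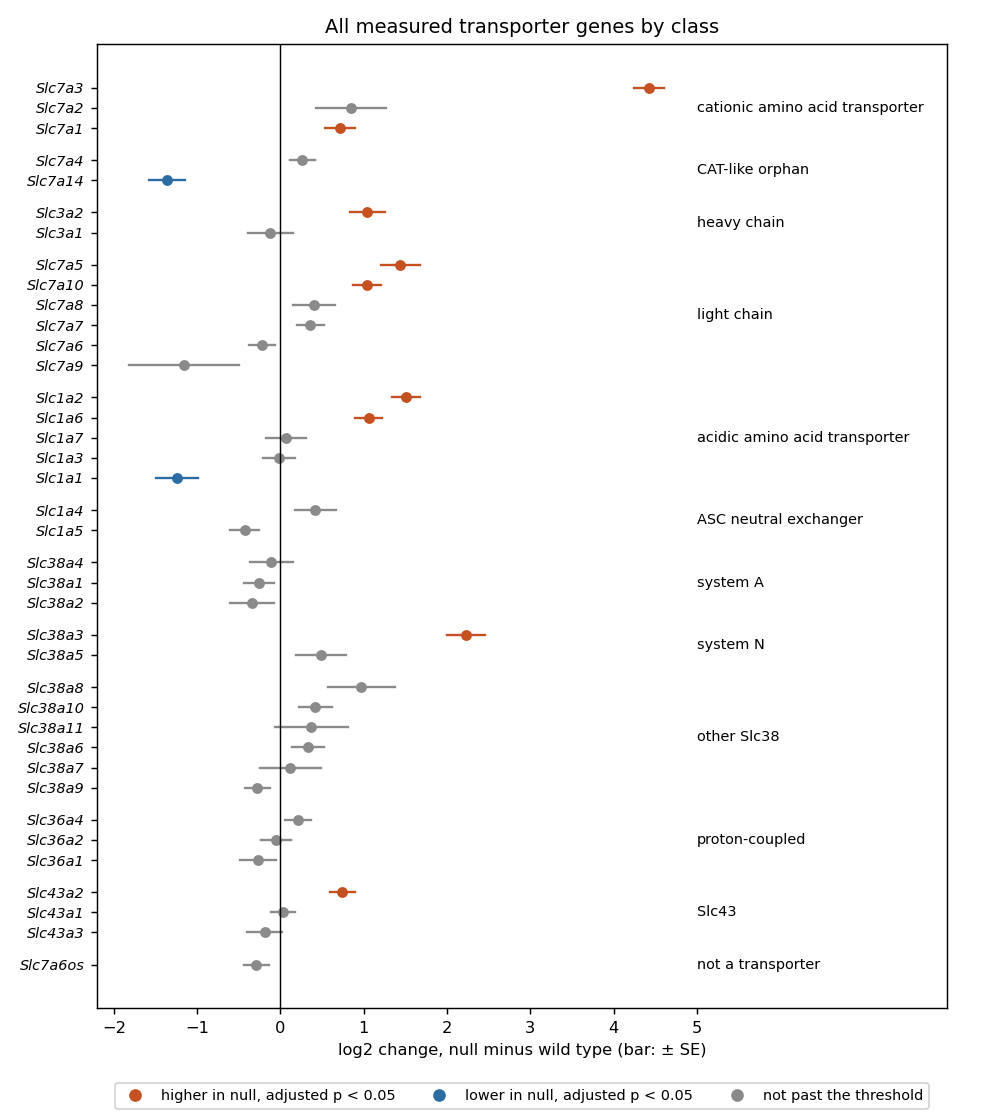
Log2 change, null minus wild type, of the 38 transporter genes tested, ordered by class, with bars of 1 SE either way. The genes past the threshold lie in 7 of the classes, and Slc7a3 stands far to the right at 4.43 log2 units.

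Slc3a2 encodes the heavy chain CD98, which brings most of the light chains to the plasma membrane. It read 2.78, 2.84 and 3.30 in the wild-type pools and 4.16, 4.11 and 3.76 in the null pools. All null pools were above all wild-type pools, with the narrowest gap between wild-type pool 3 and null pool 3. The difference was 1.04 log2 units (SE 0.21, adjusted p = 0.0227), or 2.05-fold, and 1.38, 1.27 and 0.46 within slides 1, 2 and 3. It did not pass in the block fit (adjusted p = 0.0979), nor without a filter on dim probes (0.0624), nor when pool 1 or 2 of either group was left out (0.0537 to 0.0893). The other heavy chain, Slc3a1, which works in kidney and gut epithelium, had overlapping groups and a change of -0.12 (SE 0.27, adjusted p = 0.828).

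Of the 10 light chains on the array 6 were measured, and 2 rose. Slc7a5, or LAT1, pairs with Slc3a2 and exchanges leucine and other large neutral amino acids for glutamine. Its levels were -1.14, -1.48 and -1.48 in the wild-type pools and -0.36, 0.36 and 0.23 in the null pools. Null pool 1 was the lowest of its group, yet still above every wild-type pool. The difference was 1.44 log2 units (SE 0.23, adjusted p = 0.0105), or 2.72-fold, with 0.78, 1.84 and 1.71 within the slides, and the block kept the call (adjusted p = 0.0435). Without wild-type pool 2 it was lost (0.0528). A second, dimmer probe of Slc7a5 gave 0.72 (SE 0.26), and its groups overlapped, since null pool 1 read -3.08 and wild-type pool 1 read -3.03. It did not pass (adjusted p = 0.121, over all probes kept).

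Slc7a10, or Asc-1, carries small neutral amino acids and D-serine. It read -5.86, -5.93 and -5.66 in the wild-type pools and -4.96, -4.70 and -4.67 in the null pools. The signal was low but well above background on all 6 arrays, and the groups did not overlap. The difference was 1.04 log2 units (SE 0.17, adjusted p = 0.0106). The call was lost in the block fit (adjusted p = 0.0660) and when pool 2 of either group was left out (0.0524 each), and with normexp the change was 0.59.

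The other light chains did not pass. Slc7a7, the y+LAT1 exchanger of cationic and neutral amino acids, lay a little higher in every null pool, by 0.36 (SE 0.16, adjusted p = 0.197). Slc7a6, its close relative, had a difference of -0.22 (SE 0.16, adjusted p = 0.439) and Slc7a8, or LAT2, of 0.40 (SE 0.25, adjusted p = 0.356), each with overlapping groups and neither passing. Slc7a9, the light chain that pairs with Slc3a1, cleared background on all 3 wild-type arrays and on 0 null arrays, so it passed the filter on its wild-type arrays alone. Its null pools spread from -8.37 to -5.44 (adjusted p = 0.306). Slc7a6os, the gene opposite Slc7a6, had a difference of -0.29 (SE 0.15, adjusted p = 0.271).

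Slc7a11, or xCT, exchanges cystine for glutamate and is a well-known ATF4 target, with the elements printed above. Its probe was not well above background on any array, so no fold can be given. The values were -9.05, -8.03 and -7.73 in the wild-type pools and -7.67, -6.58 and -6.59 in the null pools. Values below background give no order between the groups. Slc7a12, Slc7a13, Slc7a15 and Slc36a3 also had 0 arrays well above background on each of their probes, and those probes too read higher on average in the null pools. No rise is read from this. With dim probes not filtered, the median change of all genes went from 0.03 to 0.17.

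The glutamate carriers of the Slc1 family divided. Slc1a2, or GLT-1, the main glial glutamate carrier of the brain, read -5.90, -5.73 and -5.75 in the wild-type pools and -4.23, -4.52 and -4.11 in the null pools. The groups stood clearly apart, at a low signal. The difference was 1.51 log2 units (SE 0.17, adjusted p = 0.00313), or 2.85-fold, and with normexp it was 0.72 (adjusted p = 0.0286). This is the brightest of its 3 probes, and the other 2 were not well above background on any array.

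Slc1a6, or EAAT4, known from Purkinje cells, read -1.78, -2.02 and -2.16 in the wild-type pools and -0.94, -0.97 and -0.86 in the null pools. The null pools were close together and all above the wild-type pools. The difference was 1.06 log2 units (SE 0.16, adjusted p = 0.00932), and of the 17 alternatives only the block fit lost the call (0.0657).

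Slc1a1, or EAAC1, which also takes up cysteine, went the other way. It read -4.12, -4.36 and -4.74 in the wild-type pools and -5.26, -5.64 and -6.03 in the null pools, and cleared background on 2 null arrays of 3. The change was -1.24 log2 units (SE 0.25, adjusted p = 0.0245), with -1.15, -1.28 and -1.29 within the slides. With normexp it was -0.01 (adjusted p = 0.982). The call was also lost without a filter on dim probes (0.0631) and when wild-type 1 or 2, or null 2 or 3, was left out (0.0610 to 0.0907). Slc1a3, or GLAST, had a difference of -0.02 (SE 0.19, adjusted p = 0.964) and Slc1a7 of 0.07 (SE 0.24, adjusted p = 0.889), with overlapping groups.

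The neutral exchangers of the same family did not pass. Slc1a5, or ASCT2, a main route of glutamine entry, read 0.89, 0.80 and 1.07 in the wild-type pools and 0.39, 0.70 and 0.38 in the null pools. It was lower in every null pool, with a change of -0.43 (SE 0.17, adjusted p = 0.154), and its other probe gave -0.30 with overlapping groups. Slc1a4, or ASCT1, an exchanger of serine and alanine whose promoter match is printed above, read -0.40, -0.19 and -1.03 in the wild-type pools and -0.30, 0.10 and -0.15 in the null pools. Its groups overlapped, with a change of 0.42 (SE 0.25, adjusted p = 0.321).

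In the Slc38 family, Slc38a3 was the only one of 11 measured genes to pass. It encodes SNAT3, a system N carrier that moves glutamine in either direction in liver, kidney and astrocytes. It read -4.17, -3.95 and -3.51 in the wild-type pools and -1.32, -1.75 and -1.86 in the null pools. All null pools were more than 1 log2 unit above the highest wild-type pool. The difference was 2.23 log2 units (SE 0.23, adjusted p = 0.00237), or 4.71-fold, with 2.85, 2.20 and 1.65 within the slides, and it passed under all 17 alternatives (1.53 to 2.42). Slc38a5, the other system N gene, had a difference of 0.49 (SE 0.30, adjusted p = 0.340).

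None of the 3 system A genes, which concentrate small neutral amino acids in the cell, passed in limma, and 0 had an unadjusted p under 0.05. Slc38a2, or SNAT2, a known target of the amino acid response, read 2.57, 3.16 and 3.05 in the wild-type pools and 2.95, 2.69 and 2.12 in the null pools. These groups overlapped, with a change of -0.34 (SE 0.26, adjusted p = 0.450). Slc38a1, or SNAT1, had 3.82, 3.90 and 3.50 in the wild-type and 3.27, 3.53 and 3.63 in the null pools, a change of -0.26 (SE 0.18, adjusted p = 0.408), and its other probes gave 0.19 and -0.30. Slc38a4 had a difference of -0.11 (SE 0.26, adjusted p = 0.840). Of the remaining Slc38 genes, the lysosomal arginine sensor Slc38a9 was lower in every null pool, with a change of -0.28 (SE 0.15, adjusted p = 0.264), and Slc38a10 was higher, with 0.42 (SE 0.20, adjusted p = 0.234). Slc38a6, Slc38a7, Slc38a8 and Slc38a11 had overlapping groups, with changes from 0.12 to 0.97.

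Slc43a2, or LAT4, lets branched-chain amino acids and phenylalanine through without an exchange partner. It read -1.74, -1.46 and -1.59 in the wild-type pools and -0.86, -0.86 and -0.85 in the null pools, so that the null pools were nearly equal and all higher. The difference was 0.74 log2 units (SE 0.15, adjusted p = 0.0250), or 1.67-fold. The call was lost in the block fit (adjusted p = 0.164), when arrays were scaled to their medians (0.0579), without a filter on dim probes (0.0769) and without any 1 of the 6 pools (up to 0.0940). Slc43a1, or LAT3, had a difference of 0.03 (SE 0.14, adjusted p = 0.919) and Slc43a3, which carries purine nucleobases, of -0.19 (SE 0.21, adjusted p = 0.616). The proton-coupled Slc36a1, Slc36a2 and Slc36a4 had differences of -0.27 to 0.21, with overlapping groups, and 0 of the 3 passed in limma or had an unadjusted p under 0.05.

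In all, the groups did not overlap for 12 members that were higher and 5 that were lower in the null pools, which is 31.6% and 13.2% of the 38, beside 18.0% and 15.0% of all genes. The lower share was near that of all genes, and it includes Slc7a14, whose null arrays were not well above background. The 6 among them that did not pass were Slc7a7, Slc38a10 and Slc7a4, higher, and Slc1a5, Slc38a9 and Slc7a6os, lower.

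**Figure D3:**
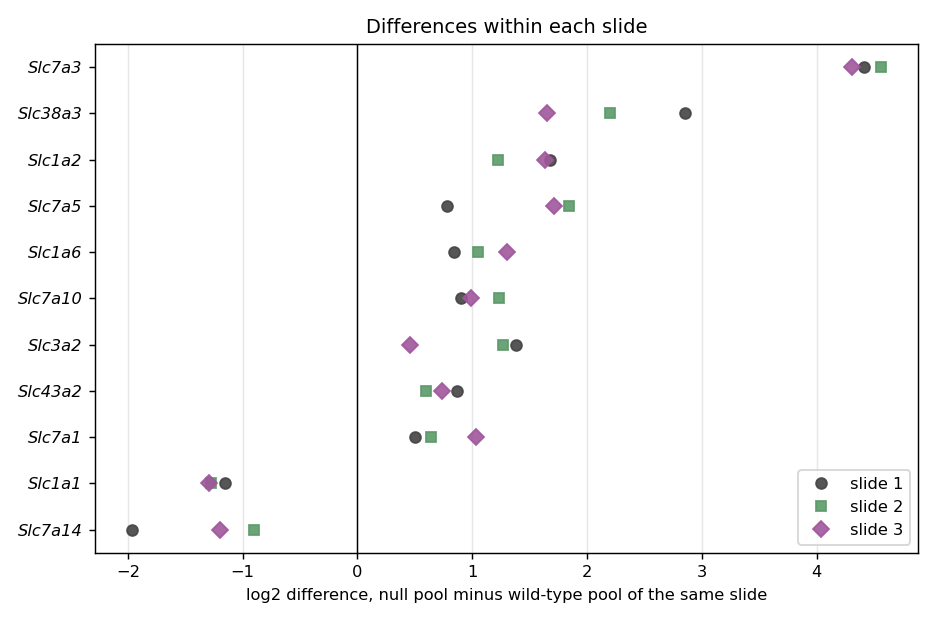
Log2 difference between the null and the wild-type pool of the same slide for the 11 genes past the threshold, with a circle, square and diamond for slides 1, 2 and 3. Slc7a3 lies between 4.31 and 4.56 on the slides, while Slc38a3 runs from 1.65 to 2.85. Since the groups did not overlap in these genes, the sign is the same on each slide by construction.

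Other genes that respond to amino acid shortage were set beside the carriers. Of 32 measured genes of the amino acid response, 22 rose and 0 fell in limma (27 were higher and 0 lower at an unadjusted p under 0.05), with a median change of 1.07 log2 units. The risen are 68.8% of the list, beside 6.60% of all genes. Several of this list had been seen to rise before it was drawn up, so its count is no independent evidence. The glycoprotein hormone gene Stc2 rose 14.1-fold (log2 SE 0.17), the glutathione-degrading Chac1 23.2-fold (0.21), the pseudokinase gene Trib3 16-fold (0.24) and the mTORC1 inhibitor Ddit4 8.81-fold (0.24), with adjusted p from 0.000177 to 0.000904. Ddit4 and Stc2 are also known hypoxia targets. Named after their values were seen, Atf4 itself rose by 0.82 (SE 0.19, adjusted p = 0.0385) and the asparagine synthetase Asns by 1.53 (SE 0.20, adjusted p = 0.00581). In the block fit 14 of the 32 passed, and Atf4 did not (adjusted p = 0.165).

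Few genes that sense amino acids passed. Of 40 measured members of the GCN2 and mTORC1 sensing list, 3 rose and 0 fell in limma, with 5 higher and 5 lower at an unadjusted p under 0.05, and their median change was 0.02. The 3 were the folliculin partner Fnip1 (0.97, SE 0.19), the GATOR2 subunit Wdr59 (0.75, SE 0.15) and the methionine-related sensor Bmt2 (0.67, SE 0.16), with adjusted p from 0.0225 to 0.0434. In the block fit 0 of the list passed in limma (6 had an unadjusted p under 0.05). Leaving out wild-type 2, null 2 or null 3 also gave 0 (9, 6 and 5 had an unadjusted p under 0.05), and 1 gene passed without each of the other pools. The direction varied with the setting: median scaling gave 1 risen and 2 fallen, the trended prior 3 and 2, array weights 3 and 3, and the 1 call without wild-type 3 was of a fallen gene. The risen share, 7.5%, lies near the 6.60% of all genes. Sesn1 and Sesn3 were on this list, but Sesn2 was counted with the response genes, so it is not in these counts. Named after its values were seen, Sesn2 rose by 1.28 (SE 0.20, limma adjusted p = 0.011) and passed in the block fit (adjusted p = 0.0484).

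Amino acid carriers of other families were measured for 23 of 30 listed genes, of which 2 rose and 1 fell, with a median of -0.02. These are 8.70% and 4.35% of the 23, near the 6.60% and 3.83% of all genes. The glycine carrier Slc6a9 rose by 1.03 (SE 0.21, adjusted p = 0.0235) and the lysosomal cystine carrier Ctns by 0.63 (SE 0.16, adjusted p = 0.0445). The mitochondrial carrier of basic amino acids Slc25a29 fell by 1.09 log2 units (SE 0.19, adjusted p = 0.0158). In the block fit 0 of the 23 passed in limma (3 had an unadjusted p under 0.05), and 0 passed when pool 2 of the wild-type or of the null group was left out (3 and 6 at an unadjusted p under 0.05). Leaving out wild-type 1, wild-type 3 or null 3 gave 1 call.

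**Figure D4:**
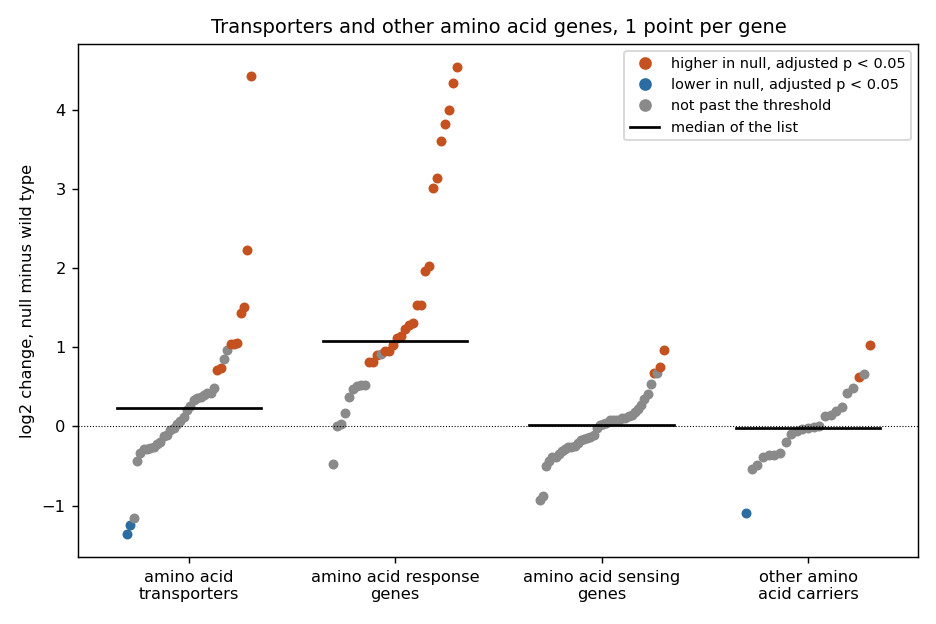
Log2 change, null minus wild type, with 1 point per measured gene in the 38 transporters, 32 amino acid response genes, 40 amino acid sensing genes and 23 carriers of other families, coloured by call, with a line at each median. The medians are 0.24, 1.07, 0.02 and -0.02, and most response genes are past the threshold.

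Each pool holds mixed tissue, so fewer cells of a type and less RNA per cell cannot be told apart. Markers of several cell types moved with the genotype. Over all genes tested, 6.60% rose and 3.83% fell. All 12 megakaryocyte and platelet markers rose, and the mean of their levels ran from -2.25 to -1.76 in the wild-type and from 0.40 to 0.97 in the null pools. Of 7 measured visceral endoderm and liver markers 3 rose (42.9%), with means of -4.34 to -3.77 and -3.02 to -1.91. Alb, Apoa1 and Apoa4 did not pass the filter. Of 9 measured neural markers 3 fell (33.3%), with means of -3.56 to -3.23 and -4.65 to -4.17. Neurod1, 1 of the 3, was well above background on 3 wild-type and 0 null arrays. It passed the filter on its wild-type arrays alone, and its null values lower the null means. The cardiomyocyte means lay between 6.34 and 6.46 in the wild-type and between 6.29 and 6.56 in the null pools. Of the 11, 1 rose (9.09%), near the share of all genes. Of 6 pharyngeal endoderm markers 1 fell (16.7%), with means of -1.87 to -1.50 and -2.12 to -2.03. At an unadjusted p under 0.05, 3 of them were lower and 0 higher. Of 9 measured primitive erythroid markers 0 passed in limma, though 7 were higher at an unadjusted p under 0.05, and their means ran from 1.39 to 2.44 and from 2.47 to 3.55. No call was made in limma among 6 endothelial markers (means -0.51 to 0.13 and -0.29 to 0.36) or 7 measured macrophage markers (-4.48 to -3.74 and -4.03 to -3.80), and 0 of either had an unadjusted p under 0.05. Of 7 measured trophoblast markers 0 passed (1 higher, Gcm1, and 1 lower, Hand1, at an unadjusted p under 0.05). Their means were -2.19 to -1.66 in the wild-type and -3.00, -1.48 and -0.36 in the null pools, where the first lacks Gcm1, whose spot was an outlier there. The part of these cells in the changes of the transporters was not tested.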

How the data were processed

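Per the file headers, Agilent Feature Extraction (version 10.7.3.1, design 026655) gave the deposited intensity values, with background subtracted within each array and no scaling between arrays. The other deposited columns, read as flags, mark spots well above background, saturated or outlying. The authors' table of log2 values covered 24158 probes, with normalization not given in the sources used; it correlated above 0.999 with the scanner signal on each array.

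The log2 of the processed signal was taken, outlier spots were left out, and the 75th percentile of the remaining non-control spots was subtracted array by array. Probes well above background on at least 3 of 6 arrays were kept (26848 of 39429), and the brightest stood for each gene. Symbols came from RefSeq accessions in a GRCm38.p6 table, which named 26424 probes; the headers name mm9. The test was limma (3.58.1, R 4.3.3), two-sided, with Benjamini-Hochberg adjustment over 21800 genes, and SE is moderated. The fit was also run on simulated data with noise drawn apart for each gene and array. Shared slide or array effects were not simulated, so this says nothing on calls lost under the alternatives. After outlier spots were left out, no tested transporter gene lacked a value on any array. Pools of 1 number shared a slide, but their deviations from the group means correlated at -0.41, -0.09 and -0.41, so the main comparison has no block.

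Named in full were the called members, Slc7a1, Slc7a3, Slc7a5, Slc7a11, Slc3a2, Slc1a4, Slc1a5, Slc38a1 and Slc38a2, and up to 4 called genes of each other list. Atf4, Asns and Sesn2 were added after their values were seen. Members, lists and motifs were chosen with earlier results of these data known. The 17 alternatives were quantile and median scaling, normexp on the median spot signal (offset 50), dim probes not filtered, a stricter filter that asks for all 6 arrays, keeping outlier spots, averaging the probes of a gene, array weights, a prior that is trended and robust, a block for the slide, the authors' table and leaving out each array.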

Additional observations from a re-analysis of the deposited data

How the results depend on the processing

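Over the 38 transporters and 17 alternatives, 579 fitted changes kept their side of the threshold with no change of sign, 34 lost the call with no change of sign, and 24 changed sign. Of the 24, 1 was of a called gene, Slc7a14, at 0.20 with normexp. Normexp also turned Slc36a2 (0.20), Slc3a1 (0.31) and Slc7a9 (0.26), and median scaling Slc1a7 (-0.07), Slc38a7 (-0.02) and Slc43a1 (-0.11). Slc1a7 was -0.04 with quantile scaling and -0.05 in the authors' table, Slc36a1 0.01 with probes averaged and Slc43a3 0.02 with array weights. Leaving out 1 pool gave -0.17 to 0.09 for Slc1a3, -0.11 to 0.24 for Slc1a7, -0.17 to 0.08 for Slc36a2, -0.37 to 0.05 for Slc38a4, -0.14 to 0.52 for Slc38a7, -0.04 to 0.87 for Slc38a11 and -0.33 to 0.18 for Slc3a1. Of the 11 called genes, Slc7a3, Slc38a3 and Slc1a2 passed throughout. With the slide as a replicate block, 731 of all genes passed, 4 transporters rose, 14 amino acid response genes passed, and 0 sensing genes and 0 carriers of other families did in limma (6 and 3 had an unadjusted p under 0.05). With no filter on dim probes the counts were 1037 of all genes, 1 fallen transporter, 0 sensing genes (8 at an unadjusted p under 0.05) and 1 other carrier. Array weights gave 3820 of all genes and 6 sensing genes, and a trended prior 5 sensing genes. The fallen transporters were 0 in limma with normexp and 0 where every array had to be above background (1 each had an unadjusted p under 0.05); the latter setting left Slc1a1 and Slc7a14 out of the test. Leaving out 1 pool gave 837 to 1766 of all genes, 4 to 7 risen and 1 to 2 fallen transporters, 15 to 18 response genes, 0 to 1 sensing genes and 0 to 2 other carriers. Signal over background limits Slc1a1, Slc3a1, Slc7a14, Slc7a9, Slc7a2, Slc38a8 and Slc38a11, and gives no fold for the 5 genes below background. The cause of these losses was not tested.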
